A study of Mus musculus with 19 samples.

Results

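CBFA2T2 ChIP-seq peaks that were called in H3.3WT cells alone and away from the ends of protein-coding genes numbered 882. They were chosen by their calls and positions, as the peaks of the H3.3WT list that overlapped no peak of the H3.3K27M list by even 1 bp and whose summit lay more than 1 kb from every annotated end of a RefSeq protein-coding gene. The H3.3WT list held 6920 peaks and the H3.3K27M list 8272 peaks. Of the 6920, 1424 (20.6%) had no H3.3K27M peak, and the 882 are what remains of these after the 542 at gene ends are taken out. A summit inside the span of a protein-coding gene placed 425 of the 882 inside genes, and the other 457 were intergenic.

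The cells were NE-4C, a neural stem cell line from p53-deficient mouse embryonic brain, and all of them had lost H3f3a, 1 of the genes for the histone variant H3.3. An HA-tagged H3.3 was supplied in its place, either with methionine at lysine 27 (H3.3K27M), the substitution of childhood diffuse midline glioma, or in its wild-type form (H3.3WT). Among the 19 libraries of the series (11 ChIP, 8 input, 3 genotypes with a Cbfa2t2 knockout of the H3.3WT cells), the CBFA2T2 ChIP of H3.3K27M cells and that of H3.3WT cells had peak lists that were used here. Each was 1 library of cells fixed with 1% formaldehyde for 10 min, so the genotypes are not tested against each other, and the depth of both libraries is unknown. Peak lists carry no expression, and the neural stem cell label could not be checked against marker genes. The tagged H3.3 was stably expressed, and whether each line is 1 clone is not given in the sources used here.

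CBFA2T2 (MTGR1) belongs to the MTG, or ETO, family of corepressors with RUNX1T1 and CBFA2T3. These proteins bind no DNA sequence of their own. They are brought to chromatin by DNA-binding factors such as E proteins and carry NCoR, SIN3A and histone deacetylases with them, and in mouse germ cells and stem cells CBFA2T2 works with PRDM14. A peak inside a gene or between genes can therefore mark an enhancer, an internal promoter or another element, and a peak list alone does not say which.

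Sequence is shown first for peaks that sit on a RefSeq transcription start inside a gene, with 1 intergenic start after them, since the reference used here gives strand and sequence at RefSeq starts. A promoter window held 300 bases, 250 before a RefSeq start and 50 from it onwards, on GRCm38.p6, the assembly of mm10. Such windows overlapped 63 of the 414 internal peaks on chromosomes with windows, and for 60 of the 63 a window belonged to the gene that held the peak. Capitals mark the GC box, GGGCGG or CCGCCC on the other strand. The examples are from the strongest by −log10 q among peaks with a summit within 100 bp of the start, and the sequences are RefSeq's.

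The Commd1 window, chr11:22982235-22982534 on the minus strand, was overlapped over 171 of its 300 bases by a peak of 8.09 fold whose summit was 23 bp from the start. COMMD1 acts in endosomal sorting and copper handling.
Commd1: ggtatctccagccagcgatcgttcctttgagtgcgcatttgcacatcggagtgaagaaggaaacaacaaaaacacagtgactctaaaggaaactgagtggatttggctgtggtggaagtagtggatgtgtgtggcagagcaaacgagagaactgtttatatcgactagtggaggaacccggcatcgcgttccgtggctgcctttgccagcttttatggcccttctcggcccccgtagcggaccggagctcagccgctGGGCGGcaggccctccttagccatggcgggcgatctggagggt
Cirbp, the gene of a cold-inducible RNA-binding protein, had a window at chr10:80167921-80168220 on the plus strand with 4 GC boxes, under a peak of 6.30 fold with its summit 58 bp from the start.
Cirbp: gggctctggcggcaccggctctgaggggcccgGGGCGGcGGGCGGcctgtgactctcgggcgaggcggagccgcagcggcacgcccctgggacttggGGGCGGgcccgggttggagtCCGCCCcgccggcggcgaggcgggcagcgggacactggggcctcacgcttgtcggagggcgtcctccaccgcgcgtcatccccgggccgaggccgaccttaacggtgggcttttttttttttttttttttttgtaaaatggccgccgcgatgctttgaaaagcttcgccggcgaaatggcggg
Mat2b, the regulatory subunit of methionine adenosyltransferase, had a window at chr11:40692633-40692932 on the minus strand with 2 GC boxes and 1 ETS motif (CCGGAAG). A peak of 5.27 fold overlapped 181 of its bases.
Mat2b: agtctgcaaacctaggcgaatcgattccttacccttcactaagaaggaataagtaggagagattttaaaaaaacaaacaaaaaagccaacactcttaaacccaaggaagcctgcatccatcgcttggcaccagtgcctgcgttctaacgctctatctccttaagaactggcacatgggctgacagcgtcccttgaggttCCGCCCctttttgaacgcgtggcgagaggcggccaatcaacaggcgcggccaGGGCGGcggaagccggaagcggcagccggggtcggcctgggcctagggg
Sav1, a scaffold of the Hippo pathway, had a window at chr12:69986953-69987252 on the minus strand with 6 GC boxes, 1 pair of which overlaps, and 78.3% G and C, under a peak of 6.22 fold.
Sav1: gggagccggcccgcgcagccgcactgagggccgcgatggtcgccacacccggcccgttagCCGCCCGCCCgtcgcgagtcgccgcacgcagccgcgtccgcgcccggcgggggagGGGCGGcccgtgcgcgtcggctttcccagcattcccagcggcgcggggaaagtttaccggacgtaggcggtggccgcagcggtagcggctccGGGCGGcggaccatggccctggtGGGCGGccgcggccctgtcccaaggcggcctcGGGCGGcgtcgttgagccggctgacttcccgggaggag
The Grb2 window, chr11:115699485-115699784 on the minus strand, is shown for contrast. It held no GC box and had a low CpG ratio, observed over expected, of 0.315, and a peak of 5.73 fold overlapped 215 of its bases. GRB2 is the adaptor between receptor tyrosine kinases and Ras.
Grb2: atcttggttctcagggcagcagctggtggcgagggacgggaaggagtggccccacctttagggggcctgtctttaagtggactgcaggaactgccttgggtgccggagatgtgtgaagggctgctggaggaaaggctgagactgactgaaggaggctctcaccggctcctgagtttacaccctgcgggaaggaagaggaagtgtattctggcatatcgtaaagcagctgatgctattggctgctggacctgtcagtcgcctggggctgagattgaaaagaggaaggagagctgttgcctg
An intergenic counterpart is the start of 2900076A07Rik, a long non-coding RNA (lncRNA) gene, at chr7:81523300-81523599 on the plus strand. It held no GC box and 2 ETS motifs, and a peak of 6.28 fold overlapped 199 of its bases.
2900076A07Rik: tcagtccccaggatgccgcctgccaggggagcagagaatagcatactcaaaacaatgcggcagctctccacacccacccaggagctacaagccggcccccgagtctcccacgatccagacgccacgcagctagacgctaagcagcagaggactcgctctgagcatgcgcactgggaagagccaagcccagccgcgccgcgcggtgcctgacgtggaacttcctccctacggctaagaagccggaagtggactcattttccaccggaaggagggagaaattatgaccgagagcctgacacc

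The H3.3WT-only peaks were mostly weak and narrow. Fold enrichment here is the authors' value for the summit of a peak over its local background, and −log10 q is the caller's measure of confidence. Both helped decide which peaks were called at all, so they describe the peaks and support nothing. The median fold was 4.89 inside genes (95% order-statistic interval 4.75 to 5.02) and 5.21 between genes (5.12 to 5.38), against 6.42 and 6.02 for shared peaks of the H3.3WT list in the same places. Median −log10 q was 4.84 inside genes and 5.20 between them, against 10.4 and 9.59 for shared peaks. Widths had medians of 364 and 354 bp, against 498.5 and 463 bp for shared peaks. The H3.3K27M-only peaks had medians of 4.64 fold inside genes and 4.83 fold between genes in their own list, and widths of 396 and 382 bp.

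Of the 882 peaks, 449 had a −log10 q under 5 and 48 had one under 2, near the lowest value of the list, 1.33. At least 10 was reached by 77 peaks, 30 inside genes and 47 between genes. A fold of at least 8 was reached by 20 internal and 27 intergenic peaks. Many peaks carried exactly the same pair of values: the 425 internal peaks had 247 distinct pairs of fold and −log10 q, and the 457 intergenic ones had 273. The most frequent pair inside genes, 4.56 fold with −log10 q of 3.22, belonged to 7 peaks. Repeats of this kind covered 64.0% of internal and 63.2% of intergenic H3.3WT-only peaks, against 41.6% and 37.7% of shared peaks there. H3.3K27M-only peaks were alike, with 63.6% inside genes and 64.2% between genes, and shared peaks at gene ends had 72.4%.

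**Figure D1:**
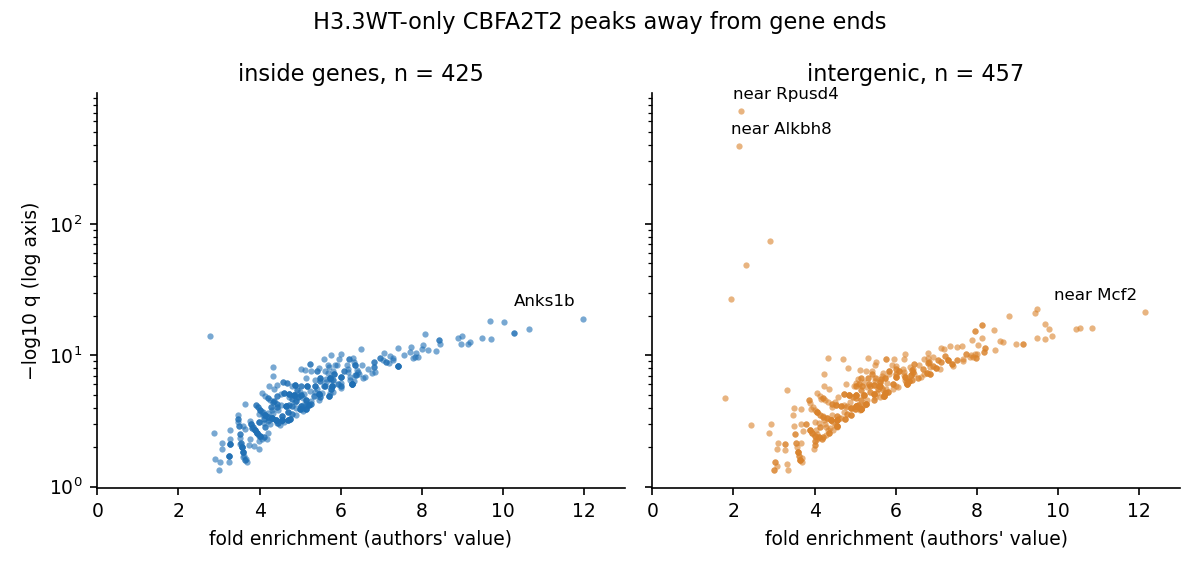
Fold enrichment (horizontal axis) and −log10 q (vertical log axis) of each H3.3WT-only peak, 425 inside genes on the left and 457 intergenic on the right, 1 point per peak. Most points lie along 1 rising band up to 11.98 fold inside genes (Anks1b) and 12.1 fold between genes (near Mcf2), and a few intergenic points lie far above the band at under 3 fold.

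The share of H3.3WT peaks that had no H3.3K27M peak was 34.5% inside genes (425 of 1231, 95% Wilson interval 31.9 to 37.2) and 40.1% between genes (457 of 1141, 37.2 to 42.9). At gene ends it was 11.9% (542 of 4548, 11.01 to 12.9). These intervals cover counting error only, and peaks of 1 library are not replicates of a genotype. The H3.3K27M list had the same contrast at higher shares. There, 48.3% of peaks inside genes, 49.5% between genes and 25.3% at gene ends had no H3.3WT peak. The H3.3WT share fell as −log10 q rose. Inside genes it was 63.3% under 3, 62.4% at 3 to 5, 40.0% at 5 to 10 and 12.1% at 10 to 20, and none of the 206 peaks of at least 20 was unshared (Wilson upper bound 1.83%). Between genes it was 72.5%, 60.5%, 45.8%, 17.7% and 4.91% in the same bins. The 4.91% was 8 of 163 peaks, and 5 of these 8 had a fold under 3 and are described below. Within each bin up to 20 the share at gene ends was lower, 47.4%, 31.8%, 17.5% and 2.73%.

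**Figure D2:**
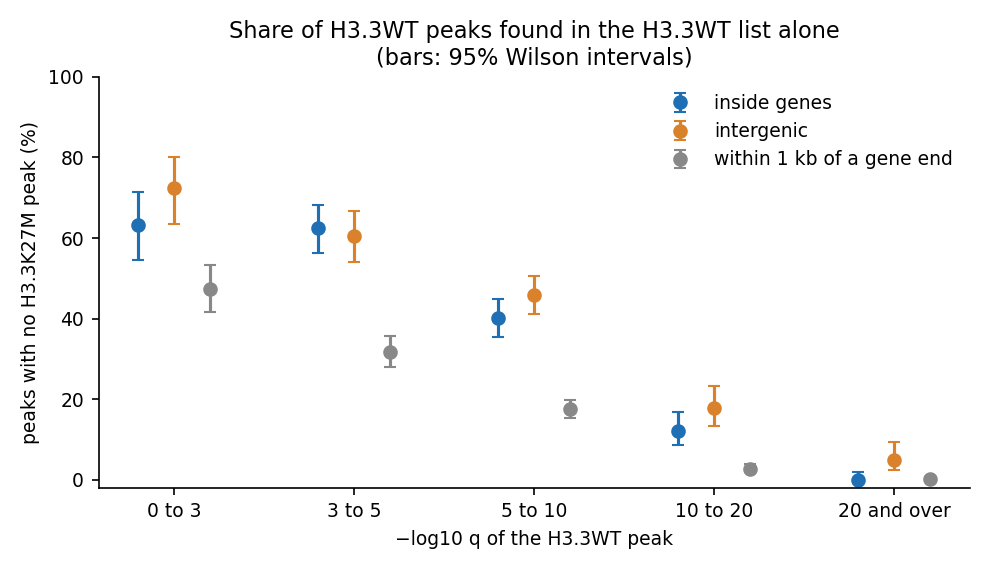
Percentage of H3.3WT peaks with no overlapping H3.3K27M peak, by the −log10 q of the H3.3WT peak and by place, with 95% Wilson intervals. The share falls from left to right in each place, and the points for peaks inside genes and between genes stay above those for gene ends up to the bin of 10 to 20.

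A missing H3.3K27M peak is not a measured zero, because the weaker sites of that library were removed at the caller's threshold. The nearest H3.3K27M peak lay within 1 kb for 32 internal and 23 intergenic peaks, and more than 100 kb away for 162 (38.1%) and 232 (50.8%). Just inside the overlap rule were peaks in Msantd3, Ubtf and Midn, with gaps of 39, 68 and 73 bp to an H3.3K27M peak. Just outside it were peaks in Ecpas, Sf1 and Casz1, which overlapped an H3.3K27M peak by 3, 18 and 26 bp. At the gene end rule, summits 1016 bp from an end of Ect2, 1031 bp from Sox12 and 1032 bp from Cd8a were just inside, and those at 998 bp from Pcdhga9, 985 bp from Mettl5 and 973 bp from Mpp2 were just outside. Folds were 4.13, 4.00 and 3.25 just inside the overlap rule and 3.26, 7.42 and 4.33 just outside it, where Sf1 was the highest of the 6.

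The strongest internal peak lay in Anks1b (chromosome 10, 90863928 to 90864318), the gene of a postsynaptic ankyrin-repeat protein, with 11.98 fold and −log10 q of 18.9. The nearest H3.3K27M peak was 218 kb away. Robo1, the receptor for the axon repellent SLIT2, held a peak of 10.7 fold (chromosome 16, 72680632 to 72681142), 367 kb from the nearer gene end and 416 kb from an H3.3K27M peak. Between genes, a peak of 9.86 fold had the SLIT2 gene itself as its nearest, though 771 kb away. Next inside genes were Btbd9 and Tbl1x, both at 10.3 fold, and a region shared by the annotations Iqschfp and Iqcj at 10.0 fold. TBL1X is a subunit of the NCoR and SMRT corepressor complexes, which MTG proteins bind. Its gene held a further H3.3WT-only peak of 4.42 fold and a pair of shared ones.

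Aoc1, which codes for a diamine oxidase, had a peak of 9.70 fold, and Mtcl1, a microtubule crosslinking factor, had one of 9.67 fold with −log10 q of 18.2. The Mtcl1 peak was 8.74 kb from an H3.3K27M peak of 4.53 fold. Yipf6, a Golgi membrane protein gene, reached 9.49 fold, the paternally expressed Snrpn 9.19 fold, the adenylyl cyclase gene Adcy3 9.13 fold and Cln8, mutated in a neuronal ceroid lipofuscinosis, 8.998 fold. Glis3, which codes for a zinc finger factor of the pancreas, kidney and thyroid, had 8.96 fold. Ranking by −log10 q added Commd1 (14.5), Rab11fip1 (13.4), which codes for a partner of RAB11 in vesicle recycling, and Tmem267 (14.0). The Tmem267 peak had only 2.78 fold, the lowest of all internal peaks.

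Between genes, the highest fold, 12.1 with −log10 q of 21.2, lay 3.62 kb from Mcf2, a guanine nucleotide exchange factor gene (chromosome X, 60182639 to 60183070). Insc, whose protein orients the spindle of dividing neural progenitors, was the nearest gene to a peak of 10.8 fold at 54.2 kb. Dmd, the dystrophin gene, was nearest to one of 10.5 fold at 73.0 kb, and Chit1, a chitinase gene, to one of 10.4 fold at 1.04 kb. Distances of 4.82 kb to Tlcd3b, 80.1 kb to A830018L16Rik, 87.5 kb to the proenkephalin gene Penk and 87.8 kb to Sugct went with 9.78, 9.68, 9.67 and 9.13 fold. Spry4, an inhibitor of receptor tyrosine kinase signalling, was 12.4 kb from a peak of 9.49 fold. Srbd1 was 5.89 kb from another of 9.49 fold. Negr1, a neuronal adhesion gene, and Lilra5, a leukocyte receptor gene, were 4.80 and 17.1 kb from peaks that both had 8.13 fold and −log10 q of 17.002. The nearest gene is only a label of position here, and nothing in the lists ties a peak to a gene it acts on.

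The ranking by −log10 q between genes was led by another kind of peak. Only 5 peaks of the 882 combined a fold under 3 with a −log10 q of 20 or more, and all were intergenic. One lay 29.5 kb from Rpusd4 (chromosome 9, 35305274 to 35305556) with 2.20 fold and −log10 q of 715. Another 3 stood within 23.2 kb at the start of chromosome 9, with 2.32, 2.14 and 2.91 fold and −log10 q of 48.6, 388 and 73.5. The last, 7.61 kb from Tmem196, had 1.95 fold and 26.9. In the stretch at the start of chromosome 9 the H3.3K27M list held 16 peaks of 1.78 to 2.54 fold, all shared, and the H3.3WT list 19, of which 3 were unshared. Gaps of 937, 400 and 388 bp separated these 3 from the nearest H3.3K27M peak. Over the whole H3.3WT list, 27 peaks were of this kind and 22 of them were shared. Without them the highest −log10 q among the H3.3WT-only peaks was 22.3.

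The 425 internal peaks lay in 389 protein-coding genes, 1.78% of the 21887 annotated ones. Shared internal peaks of the H3.3WT list lay in 732 genes (3.34%) and H3.3K27M-only ones in 705 (3.22%). The 389 genes were long when each gene is counted once. Their median length was 93.4 kb, against 46.1 kb for genes with a shared internal peak, 68.3 kb for genes with an H3.3K27M-only one and 17.2 kb for all protein-coding genes. More than 100 kb was spanned by 186 of the 389 (47.8%), against 11.1% of all genes. A long gene offers more positions away from its ends. With each gene weighted by its length, the median over all protein-coding genes was 138 kb, above the 93.4 kb of the 389. The part of length in these counts was not tested. An H3.3WT peak at an end was also present in 76 of the 389 (19.5%), against 18.7% of genes with a shared and 20.1% of genes with an H3.3K27M-only internal peak, and 24.8% of all genes. Of the 389, 55 also held a shared internal peak (7.51% of the 732) and 57 an H3.3K27M-only internal peak (8.09% of the 705).

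Genes with 3 H3.3WT-only internal peaks were Auts2, Msi2, Cachd1, Nhsl1 and Pax3, and another 32 genes held a pair. Msi2, which codes for an RNA-binding protein of neural and blood stem cells, had peaks of 3.94, 6.01 and 4.88 fold and no H3.3K27M peak between the ends of its 379 kb. An H3.3K27M peak of 3.71 fold lay just beyond its right end, 88.1 kb from the nearest of the 3. Pax3, a transcription factor gene of the dorsal neural tube and neural crest, had peaks of 5.47, 5.14 and 7.41 fold at 18.9, 39.0 and 80.8 kb from its left end. An H3.3K27M-only peak of 3.52 fold lay 0.567 kb from the middle one. Auts2, linked to neurodevelopment and to a Polycomb complex, had H3.3WT-only peaks of 8.44, 4.69 and 4.61 fold and an H3.3K27M-only peak of 5.03 fold. Its 2 shared peaks had 10.3 and 12.2 fold in the H3.3K27M list and 9.78 and 8.26 fold in the H3.3WT list.

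Nhsl1, a gene for an actin regulator related to NHS, had H3.3WT-only peaks of 5.73, 7.74 and 3.88 fold and 1 shared peak. Cachd1, which codes for a protein related to calcium channel subunits, was a mixed case. Its H3.3WT-only peaks had 4.92, 4.85 and 5.50 fold, and H3.3K27M-only peaks of 3.91 and 5.13 fold lay inside the gene, 1 of them 1.30 kb from an H3.3WT-only summit. A further H3.3K27M-only peak of 5.21 fold lay at its left end, and 1 internal peak was shared. Over the 57 genes with both kinds of unshared internal peak, the closest summits were a median of 22.8 kb apart, and in 16 genes they were within 5 kb. Midn had the closest pair, at 0.172 kb, with short distances also in Pax3, Ubtf (0.577 kb), Tmpo (0.853 kb) and Triobp (0.927 kb). These neighbours count as unshared in both lists because their edges did not meet.

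**Figure D3:**
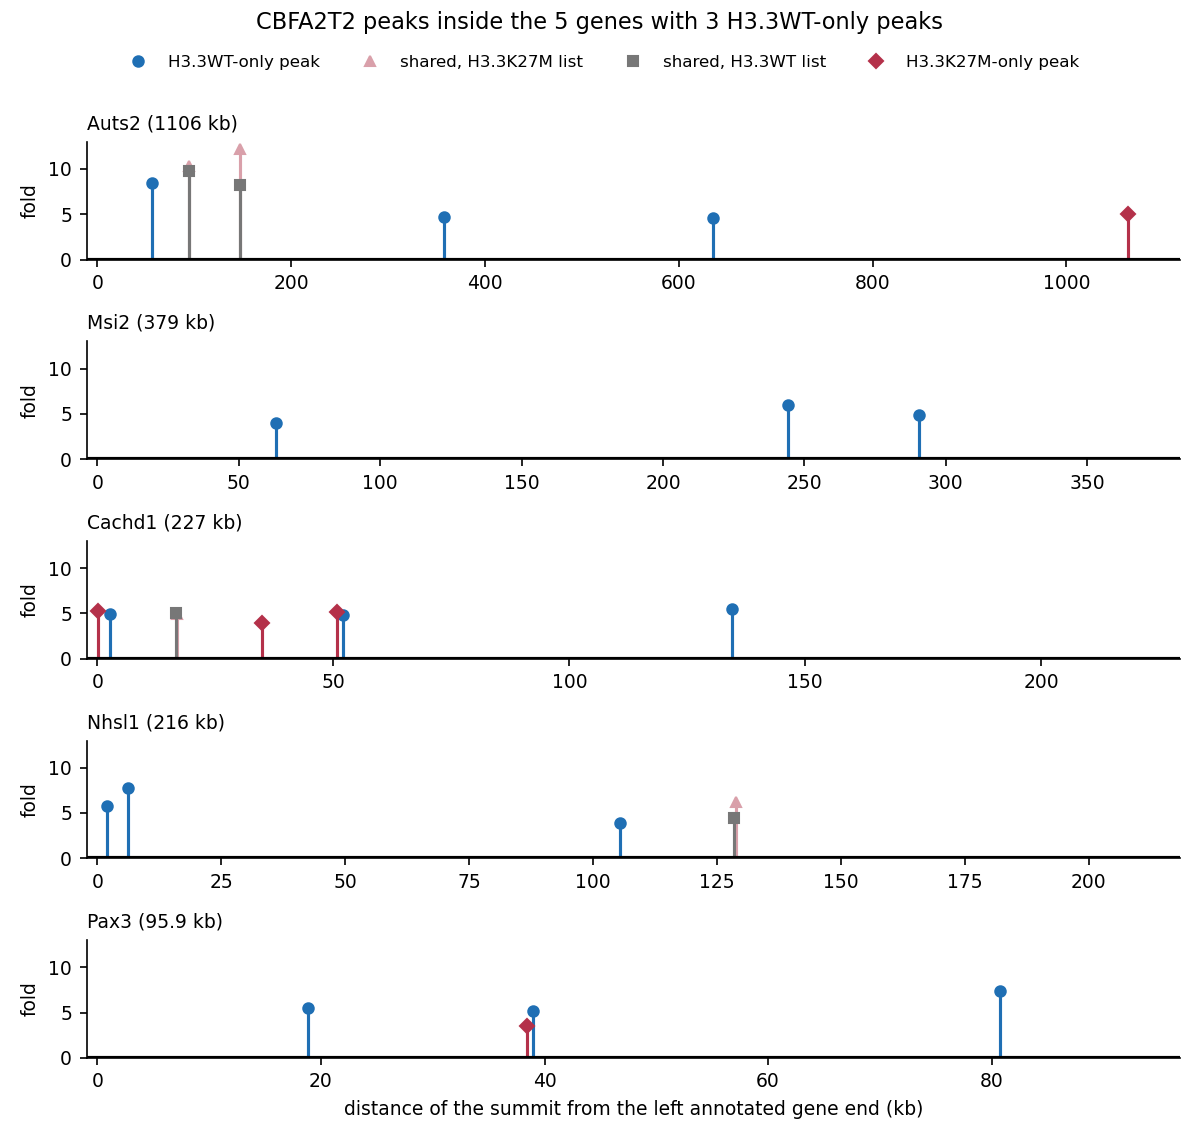
Peaks inside the 5 genes that hold 3 H3.3WT-only peaks, by distance of the summit from the left annotated gene end (kb) and fold enrichment in the peak's own list. Blue circles are H3.3WT-only peaks, pink triangles are shared peaks of the H3.3K27M list, grey squares those of the H3.3WT list, and red diamonds are H3.3K27M-only peaks; Msi2 shows blue circles alone, and a red diamond stands beside a blue circle in Cachd1 and in Pax3.

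Runs of H3.3WT-only peaks were short. With at most 50 kb between neighbours, 126 of the 882 formed 60 runs, 6 of which had 3 peaks and none more. The tightest, 10.9 kb long, lay beyond an end of Gpc4, which codes for the proteoglycan glypican-4 (chromosome X, 52189024 to 52199964). It had 6.999, 7.499 and 5.84 fold and no H3.3K27M peak within the run. A run of 39.3 kb, with peaks on both sides of the natural killer receptor gene Klrb1c and the last nearest to Klrb1b, had 4.70, 6.35 and 8.80 fold and 1 H3.3K27M peak in its span. Near and in Meis2, a homeobox gene of the developing brain and limb, 3 peaks of 3.93 to 5.14 fold spanned 49.8 kb. That span also held 1 H3.3K27M peak, a shared one of 5.27 fold. The remaining run among the 4 densest was the one at the start of chromosome 9 described above.

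Promoter windows overlapped 15.2% of the internal H3.3WT-only peaks (63 of 414, Wilson 12.1 to 19.0). The same share was 43.9% for shared internal peaks (347 of 791, 40.4 to 47.3) and 23.6% for H3.3K27M-only ones (173 of 733, 20.7 to 26.8). The 3 intervals did not overlap, but they cover counting error only, and peaks of 1 library are not replicates. Median widths were 364, 498.5 and 396 bp, and the part of width was not tested. With both lists filtered, the H3.3WT-only share was 21.3% at −log10 q of at least 5 and 25.2% at 5 fold or more. It was 21.1% with the 6000 strongest peaks of each list and 11.7% to 16.9% under the other alternatives. The 21.1% to 25.2% lie inside the H3.3K27M-only interval, not taken under these filters. Of all 32851 windows, 90 (0.274%) overlapped an H3.3WT-only peak away from gene ends. Between genes the share was 2.48% (11 of 444, 1.39 to 4.38), against 9.10% for shared peaks and 4.98% for H3.3K27M-only ones, and all 11 were lncRNA windows. Chromosome 18, with 24 of the peaks, had no windows and is not in these shares.

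Shared peaks were stronger, so the share was also taken within ranges of −log10 q. Under 5 it was 13.8% inside genes for H3.3WT-only peaks, 30.6% for shared and 20.6% for H3.3K27M-only ones. From 5 to 10 the shares were 17.6%, 36.3% and 25.9%, and from 10 upwards 13.3% (4 of 30), 52.5% and 29.1%. The H3.3WT-only share was the lowest in each range, but its interval met that of the H3.3K27M-only peaks in all 3. Peaks at windows and the other internal peaks were alike in strength, with medians of 4.80 and 4.92 fold, while widths had medians of 414 and 359 bp. The other 351 internal peaks lay a median of 25.3 kb from the nearest RefSeq start.

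**Figure D4:**
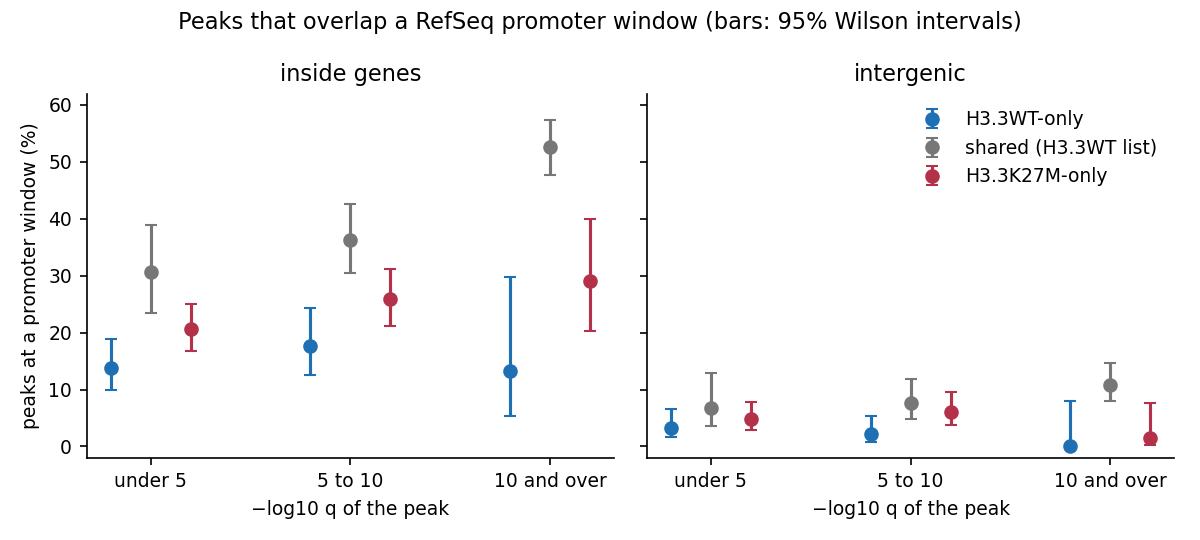
Percentage of peaks that overlap a RefSeq promoter window, by −log10 q of the peak, for H3.3WT-only (blue), shared (grey) and H3.3K27M-only (red) peaks inside genes and between genes, with 95% Wilson intervals. Inside genes the blue points lie at 13.3% to 17.6%, under the grey and red points of the same range.

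Fancc, of the Fanconi anaemia DNA repair pathway, had a peak of 7.71 fold 12 bp from a start, in a window with no GC box. A peak can overlap several windows, and the 63 internal H3.3WT-only peaks at windows met 78 of them. Wilson intervals over windows treat each window as independent and are therefore too narrow. The windows at internal H3.3WT-only peaks were 65.3% G and C at the median, with a median CpG ratio, observed over expected, of 0.818. The ratio was 0.853 in windows at shared internal peaks, 0.806 at H3.3K27M-only ones, 0.567 over protein-coding windows, the kind that most of these peaks met, and 0.384 over all windows. A GC box, searched as GGGCGG on both strands, stood in 55 of these 78 windows (70.5%), in 62.5% of windows at shared and 76.2% at H3.3K27M-only internal peaks, in 46.2% of protein-coding windows and in 35.7% of all windows. The ETS motif CCGGAAG stood in 12 of 78 (15.4%, Wilson 9.03 to 24.99), against 25.3% at shared (21.5 to 29.5) and 15.9% at H3.3K27M-only internal peaks, 11.6% of protein-coding windows and 8.86% of all windows. The NRF1 motif stood in 20.5%, against 15.8% at shared and 16.4% at H3.3K27M-only internal peaks, 8.57% of protein-coding windows and 6.23% of all windows, and its letters can overlap those of a GC box.

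The E-box CANNTG, the site of the E proteins that recruit MTG corepressors, stood in 66.7% of the 78 windows, against 55.3% at shared and 58.9% at H3.3K27M-only internal peaks, 69.0% of protein-coding windows and 72.3% of all windows. Its forms CAGCTG and CACGTG, which are part of the CANNTG count, stood in 11.5% and 12.8%. The shares were 11.1% and 9.93% at shared internal peaks, 17.8% and 9.35% at H3.3K27M-only ones and 15.6% and 7.84% of protein-coding windows. A RUNX motif, TGTGGT, stood in 11.5%, against 10.8% at shared and 8.41% at H3.3K27M-only internal peaks and 15.0% of protein-coding windows. GATA stood in 44.9%, against 38.6% at shared and 40.2% at H3.3K27M-only internal peaks and 53.2% of protein-coding windows. Windows at peaks hold more G and C than the rest, and the part of base composition in these shares was not tested. A match is a string of letters in the window and not a bound site.

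Between genes, 47 H3.3WT-only peaks (10.3%, Wilson 7.82 to 13.4) had their summit within 1 kb of an end of a non-coding gene or pseudogene. The share was 23.8% for shared intergenic peaks (20.8 to 27.2) and 22.9% for H3.3K27M-only ones (19.9 to 26.2). Among these 47, 28 were at lncRNA genes, 10 at pseudogenes and 6 at tRNA genes. The highest −log10 q of the 47, 21.1, was that of a peak 9 bp from n-TVaac7, a valine tRNA gene near Trim7, with 9.43 fold and a width of 1004 bp. The other tRNA genes were n-TTcgt3 and n-TTtgt1 for threonine (4.82 and 5.67 fold), n-THgtg4 for histidine (4.36 fold), n-TDgtc15 for aspartate (3.67 fold) and n-TGtcc7 for glycine (3.27 fold). The tRNA share was 1.31% (6 of 457), against 2.78% of shared and 4.31% of H3.3K27M-only intergenic peaks. No intergenic H3.3WT-only peak was at a small nuclear RNA gene, where 27 of the 684 shared (3.95%) and 3 of the 673 H3.3K27M-only (0.446%) intergenic peaks lay.

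Other small RNA genes appeared once each. Rny3, the gene of a Y RNA, had a peak of 5.57 fold 64 bp from an end, and the 5S ribosomal RNA gene n-R5s142 had one of 3.86 fold at 36 bp. Among pseudogenes, Gm8618 was 355 bp from the peak of 10.4 fold near Chit1 and Gm6977 was 390 bp from one of 6.82 fold. By −log10 q, the lncRNA genes with the strongest intergenic peaks were Gm26682 (8.66 fold, 583 bp), Gm32746 (7.66 fold, 886 bp) and Gm34755 (6.35 fold, 119 bp), which is in the run at Klrb1c. Inside protein-coding genes, 23 of the 425 peaks (5.41%) were within 1 kb of a non-coding gene's end, against 11.04% of shared and 9.33% of H3.3K27M-only ones. The strongest of these at an lncRNA gene by −log10 q (8.04) was at Gm35352, inside Syde2, with 5.48 fold.

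Across 28 gene lists with 1204 genes, 59 genes (4.90%) held an H3.3WT-only internal peak, against 1.78% of all protein-coding genes. This pooled share was not taken for shared or H3.3K27M-only peaks, so it is not shown to be particular to H3.3WT-only ones. Median gene lengths of the lists ran from 4.29 kb (immediate early) to 532 kb (synapse and neuronal adhesion), against 17.2 kb for all genes. The part of length was not tested. The highest share, 14.3% (10 of 70), was that of transcription factor genes with long introns, whose median length was 198 kb. They were headed by Glis3, Auts2, Zfp423 (8.45 by −log10 q), a zinc finger factor of progenitors, and Zfhx3 (6.33), a large homeodomain factor. Auts2 stands in that list although AUTS2 is not known as a DNA-binding factor. Shared internal peaks stood in 15 of the same 70 genes and H3.3K27M-only ones in 16. The list was thus marked by all 3 kinds of peak.

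Axon guidance genes had 6 of 45 (13.3%), against 10 with an H3.3K27M-only and 4 with a shared internal peak. Besides Robo1 they were the netrin receptor gene Unc5b (6.54 fold), Sema6d (5.82 fold), which codes for a semaphorin, the ephrin receptor gene Ephb1 (5.999 fold), Plxnc1 and Efnb2. Synapse and neuronal adhesion genes had 7 of 70 (10.0%), with a median length of 532 kb, against 13 with an H3.3K27M-only internal peak. They included Nlgn1 (7.91 fold), a neuroligin gene, Magi2 (6.97 and 4.44 fold), a synaptic scaffold, Cntn4 (5.23 fold), an adhesion molecule, and Ctnnd2 (6.28 fold), delta-catenin.

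Notch signalling genes had 4 of 29 (13.8%, Wilson 5.50 to 30.6), with a median length of 23.7 kb. They were the receptors Notch2 (4.88 fold) and Notch4 (4.94 fold), the coactivator gene Maml2 (4.30 fold) and Dtx4, a deltex ubiquitin ligase gene (4.30 fold). None of the 29 held a shared internal peak, against 3.34% of all protein-coding genes. An H3.3K27M-only one was held by 2 of the 29 (6.90%), against 3.22% of all protein-coding genes. A list of 29 genes is too small to set the shared and H3.3K27M-only counts apart from those shares. The median length is that of the whole list, and the lengths of the 4 genes were not compared with it. All 4 peaks had a −log10 q under 6, with 5.95 the highest. FGF, EGF and Ras-MAPK genes had 6 of 52 (11.5%), and 7 of 52 were nearest to an intergenic H3.3WT-only peak, against 1.9% of all protein-coding genes. For shared intergenic peaks that background was 2.59% and for H3.3K27M-only ones 2.7%. Inside genes they were led by Etv5 (7.998 and 5.74 fold), an ETS factor induced by FGF, Grb2, Egfr (5.65 fold) and Spred2 (4.00 fold), an inhibitor of Ras signalling. Between genes they included Spry4, Fgfr1 (6.21 fold, 3.73 kb away) and Igf1r (6.01 fold, 1.40 kb away). The nearest H3.3K27M peaks to these 3 peaks were at 277, 3.37 and 0.402 kb. Shared peaks were held by 5 of the 52 and nearest to 6, and H3.3K27M-only peaks were held by 4 and nearest to 1.

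Genes of the MTG family and its partners had 4 of 37 with an internal peak (10.8%), against 6 with a shared and 2 with an H3.3K27M-only one. Besides Tbl1x they were Cbfb (4.72 fold), the partner of RUNX factors, Runx1t1 (4.43 fold), the MTG8 gene, and Sin3a (4.10 fold), the corepressor scaffold. The Sin3a peak was 0.663 kb from an H3.3K27M peak. Wnt genes had 2 of 50, both in TCF genes: Tcf7l1, a repressor of stem cell genes, had 8.42 fold with −log10 q of 13.1, and Tcf7l2 had 4.36 fold. Ptch1, the Hedgehog receptor gene, had a peak of 6.46 fold and also an H3.3K27M-only peak of 4.72 fold. Neural stem cell genes had 2 of 32, the musashi genes Msi2 and Msi1 (4.22 fold), against 4 with a shared and 5 with an H3.3K27M-only internal peak. Msi1 was among the last, with an H3.3K27M-only peak of 3.81 fold. Intergenic H3.3WT-only peaks were nearest to 5 of the 32, shared ones to 1 and H3.3K27M-only ones to 8. The shares of all protein-coding genes were 1.9%, 2.59% and 2.7%.

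Developmental regulators typical of Polycomb are short, with a median of 7.51 kb. Internal H3.3WT-only peaks stood in 3 of 72 (Pax3, Meis1 and Meis2). An intergenic one was nearest to 10 of 72 (13.9%), against 11.1% for H3.3K27M-only and 6.94% for shared intergenic peaks. Over all protein-coding genes these shares were 1.9%, 2.7% and 2.59%, which also stand beside the nearest-gene counts below. Distances from these genes to their intergenic H3.3WT-only peaks ran from 1.12 kb (Meis2) to 524 kb (Zic1). The part of the space around genes in such counts was not tested. Otx2, a head and midbrain homeobox gene, was nearest to peaks of 5.73 and 5.50 fold at 62.6 and 85.7 kb, and the one at 85.7 kb was 0.075 kb from an H3.3K27M peak. Polycomb genes had 2 of 43 with an internal H3.3WT-only peak (4.65%), against 5 with a shared and 7 with an H3.3K27M-only one. Intergenic H3.3WT-only peaks were nearest to 3 of the 43, shared ones to 1 and H3.3K27M-only ones to 2. Jarid2, a PRC2 cofactor, held an H3.3WT-only peak of 6.33 fold. It was nearest to 3 intergenic ones of 6.42, 7.91 and 3.54 fold at 239, 79.8 and 25.4 kb. It also held an H3.3K27M-only peak of 6.17 fold. Asxl1 held a peak of 5.25 fold. Immediate early genes, which are short, had none inside, but 5 of 35 were nearest to an intergenic peak: Btg2 (8.12 fold, 11.5 kb), Dusp1 (7.22 fold, 2.40 kb), Fosb (5.999 fold, 10.0 kb), Nr4a1 and Ier5. Shared intergenic peaks were nearest to 7 of the 35 and H3.3K27M-only ones to 3.

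Metabolic lists held few. None of 54 oxidative phosphorylation genes (Wilson upper bound 6.64%) and none of 48 genes of the TCA cycle and alpha-ketoglutarate had an internal H3.3WT-only peak. Ldha, lactate dehydrogenase A, had a peak of 3.54 fold, and Insig2, a brake on cholesterol synthesis, one of 6.09 fold. None was found in 41 BMP and TGF-beta genes, 39 p53 target and apoptosis genes, 34 neuronal genes or 29 genes of muscle, blood, liver, endothelium and microglia. Lists of 29 to 54 genes are too small to set a count of 0 apart from 1.78%. The remaining lists had 1 to 3 genes each: Kdm2a, Prmt8, Bcas1, Itgb5 and Mat2b alone in theirs, Bub1b and E2f3 of the cell cycle, Dock4, Arhgap21 and Myh9 of the cytoskeleton, and Chd9, Smarcd3 and Dpf1 of chromatin remodelling.

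**Figure D5:**
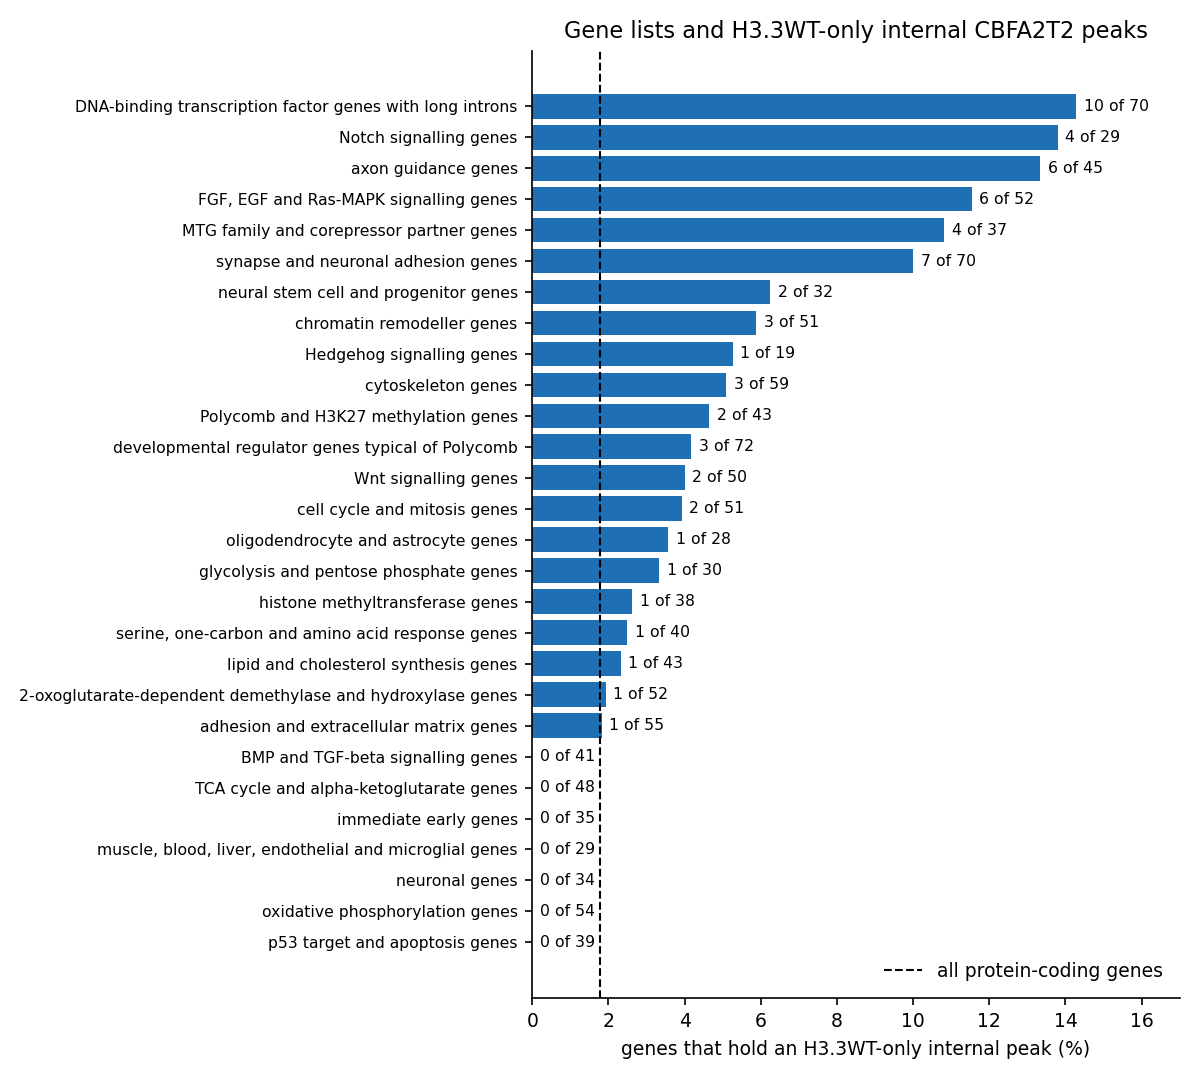
Percentage of the genes of each list that hold an H3.3WT-only internal CBFA2T2 peak (bars, with counts), and the percentage of all protein-coding genes (dashed line, 1.78%). The longest bars belong to transcription factor genes with long introns (10 of 70), Notch genes (4 of 29) and axon guidance genes (6 of 45), and 7 lists have none.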

How the data were processed

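Peaks had been called with MACS2 after trimming with Trim Galore, on mm10, per the submitters' processing notes; versions, aligner and settings are not given in the sources used here. The deposited score column and the −log10 p were not used. The fold (a ratio over local background) and the −log10 q of each peak are the authors' values, made from 1 ChIP library and 1 input, and were used as deposited to describe, rank and filter peaks within a list. Folds are not divided between genotypes, because a deeper or cleaner library changes both the number of peaks and their folds. Coordinates are 1-based.

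Gene spans came from RefSeq on GRCm38.p6, without strand or exons, so peaks inside genes are not split into exons and introns. RefSeq promoter windows gave strand and sequence for 27025 genes. Peaks overlapping by at least 1 bp were shared. Shares have 95% Wilson intervals. Functions for overlap, place and intervals were tested on simulated data. Python 3.11.15 with pandas 2.3.3, numpy 2.4.6 and scipy 1.17.1 was used.

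The peaks and the 28 gene lists (1204 genes, all matched to the annotation, 1 of them by an older symbol) were chosen with earlier results of these data known. Named were the 12 highest by fold and by −log10 q inside genes and between genes, genes with 3 or more peaks, up to 4 genes per list, the 4 densest runs, peaks at the thresholds and up to 4 peaks per type of non-coding gene. Other genes, such as those whose unshared peaks lie closest, were chosen after their values were seen. The promoter and motif shares and the split by −log10 q were added after the data were seen. Alternatives were other peak thresholds, list lengths, overlap rules and gene end windows. The other libraries were not analysed here. A few genes are not reported here.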

Additional observations from a re-analysis of the deposited data

How the results depend on the processing

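No paired analysis was possible because each genotype had 1 CBFA2T2 library and no test was made. Of 90 values, 9 under each of 10 alternatives, 66 stayed within 1.5 times the reported count or inside its interval. Peaks of −log10 q of at least 5 in both lists left 549 H3.3WT-only peaks, 241 inside genes, 28.0% of internal peaks unshared, 39 listed genes, 21.3% of internal peaks at promoter windows and a median host gene of 114 kb. Such H3.3WT peaks against the whole H3.3K27M list left 433 (193 inside, 240 intergenic), with shares of 22.4% and 29.9%, 31 listed genes and a median host of 140 kb. At 5 fold or more in both lists the unshared shares were 41.2% inside and 52.3% between genes, with 25.2% of internal peaks at windows. The 6000 strongest peaks of each list gave 47.0% between genes and 21.1% at windows. A window of 500 bp around gene ends gave 31.9% inside genes, and 3 kb gave 38.6%, 11.7% at windows and a host median of 123 kb. Counting the ends of all annotated genes gave 44.0% between genes and 0% of intergenic peaks at windows, since that rule removes peaks at lncRNA ends. Where both lists were filtered, an H3.3WT peak that overlapped only a removed H3.3K27M peak counted as unshared. At −log10 q of 5 this rule is the difference between the 549 and the 433 peaks. The share of internal peaks at windows was 21.3% with both lists filtered and 16.9% against the whole H3.3K27M list. Beyond these rules, the cause of each shift was not tested. Values on promoters, host length and listed genes were added to the alternatives after the data were seen. Depth is unknown, and each list ends at its caller's threshold, so weak sites of H3.3K27M cells are not seen.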

Other observations

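The share of H3.3WT peaks away from gene ends that had no H3.3K27M peak was 37.2% over all chromosomes (882 of 2372, Wilson 35.3 to 39.1). By chromosome it ran to 48.8% on chromosome 3 (60 of 123, 40.1 to 57.5), and it was 27.6% on chromosome 7 (40 of 145, 21.0 to 35.4). The X chromosome had 44.8% (47 of 105). In the H3.3K27M list the share without an H3.3WT peak was 48.9% over all chromosomes, 53.3% on chromosome 3 and 40.5% on chromosome 7. Chromosomes 3 and 7 were named after their values were seen.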
